A study of Mus musculus with 4 samples.

Results

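The nuclear factor I (NFI) genes Nfia, Nfib, Nfic and Nfix were followed through the cells of 4 mouse medulloblastomas of the Sonic hedgehog (SHH) subgroup. They were taken by name, and all 4 were among the 13149 genes listed for every tumour. Each single-cell library held live-sorted cells from 1 untreated end-point brain tumour. The mice were Ptch1+/-, that is, heterozygous for the hedgehog receptor gene Ptch1, and had been irradiated at birth. All 4 tumours therefore share genotype, irradiation and lack of treatment and form 1 group, so cell classes were compared within tumours. The labels give no age, and they number the tumours without saying that each came from a different mouse. The p-values therefore concern these 4 samples alone. They rest in part, and in some comparisons largely, on variance shared across genes, and do not measure the spread between tumours alone.

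NFI proteins are transcription factors that bind a palindromic motif as homodimers or heterodimers, through a conserved amino-terminal domain shared by the whole family. In the cerebellum they are known for a role in the maturation of granule neuron progenitors, the cells from which SHH medulloblastoma arises, into granule neurons, including axon extension, dendrite formation and migration. In the embryonic spinal cord and forebrain Nfia, Nfib and Nfix are known for the onset of gliogenesis and for astrocyte differentiation.

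The 4 genes lie at 4 loci of GRCm38 (the assembly called mm10), per the GENCODE M21 annotation. Nfia lies on chromosome 4, 97772734 to 98118874, on the plus strand. Nfib lies on the same chromosome, 82290173 to 82705750, on the minus strand. Nfic lies on chromosome 10, 81396186 to 81455635, and Nfix on chromosome 8, 84699876 to 84800344, both on the minus strand. Each has a coding exon of 532 bases, which encodes much of the DNA-binding domain and is part of 6 of 8 annotated Nfia, 6 of 12 Nfib, 5 of 7 Nfic and 5 of 8 Nfix transcripts. Its first 120 bases are printed to show what the members share, 5′ to 3′ on the strand of the gene, from the GENCODE M21 transcripts. Capitals mark positions at which the 4 genes do not all have the same base.
Nfia: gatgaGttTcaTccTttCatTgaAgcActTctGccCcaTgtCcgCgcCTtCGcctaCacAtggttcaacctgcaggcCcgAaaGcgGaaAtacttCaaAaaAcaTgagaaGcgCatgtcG
Nfib: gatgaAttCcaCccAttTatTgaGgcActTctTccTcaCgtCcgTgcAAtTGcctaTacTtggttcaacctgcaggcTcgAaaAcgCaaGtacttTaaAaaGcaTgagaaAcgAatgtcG
Nfic: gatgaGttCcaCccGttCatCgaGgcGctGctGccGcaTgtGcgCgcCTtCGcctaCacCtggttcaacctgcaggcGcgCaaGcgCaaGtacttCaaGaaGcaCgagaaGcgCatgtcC
Nfix: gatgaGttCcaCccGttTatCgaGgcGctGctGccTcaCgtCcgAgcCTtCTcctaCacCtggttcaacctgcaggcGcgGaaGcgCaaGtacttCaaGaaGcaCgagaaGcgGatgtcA
The stretches are chr4:97783082-97783201 for Nfia, chr4:82498650-82498769 for Nfib, chr10:81420679-81420798 for Nfic and chr8:84772196-84772315 for Nfix. Over the whole exon the 4 genes had the same base at 351 of 532 positions (66.0%), and 135 of the 181 differing positions were the third base of a codon. Between pairs of genes the identity ran from 75.8% (Nfia and Nfic) to 82.0% (Nfic and Nfix). The longest run shared by any pair of members, over all their transcripts, was 32 bases, between Nfic and Nfix, and no pair shared a run of 31 bases in the last 500 bases of their transcripts. How reads that match several genes were treated in counting is not stated in the labels.

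The tumours gave 798, 2589, 1229 and 1893 cells with between 10458431 and 23439893 UMIs in total, and the median per cell ran from 6799 UMIs in tumour 3 to 15284 in tumour 1. Any 2 libraries shared between 0 and 7 cell barcodes. Classes were rebuilt here from clusters and marker genes, because no annotation of cells was used, and carry "-like" for that reason. Progenitor-like cells join granule progenitor-like, cycling-like and mixed-phase clusters, and 9 of 9 granule progenitor markers had UMIs in them in every tumour, with a summed level of 1637 to 3927 CPM (a gene's share of all UMIs of the same cells, on the usual CPM scale). Tumour 4 stands apart. Its 451 mixed-phase and 140 neuron-like cells formed clusters of their own, it held 1 granule progenitor-like cell, and 24.3% of its cells were myeloid-like and 19.6% neutrophil-like. Unnamed clusters held 334, 415, 268 and 11 cells. Cluster 6 among them, with 35, 241, 126 and 1 cells, lay between the progenitor-like and neuron-like cells in its level of neuron markers. Its leading genes were, in order, Mroh2a, Tubb3, Igfbpl1, A330076H08Rik, Thsd7a, Rrad, Gpr56, Gm17322, Rltpr and Elavl4.

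Within each tumour Nfia, Nfib and Nfix were higher in every named neural class than in myeloid-like cells. Nfic stood at a similar level in neural and myeloid-like cells. In the other immune classes Nfia, Nfib and Nfix were also low, apart from 10 neutrophil-like cells of tumour 2. Over all cells, tumours 1 to 4 had 621, 610, 983 and 420 CPM of Nfia, and 917, 1050, 1447 and 396 CPM of Nfib. Nfix stood at 364, 504, 742 and 196 CPM and Nfic at 79.4, 84.2, 113 and 56.5 CPM. Tumour 3 was highest and tumour 4 lowest for every member. The part of the immune cells of tumour 4 in its low whole-tumour values was not tested.

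Classes were ordered by their mean over tumours 1 to 3, since tumour 4 had 1 granule progenitor-like cell, 1 cell in cluster 6 and 10 cycling-like cells. Of its 464 progenitor-like cells, 451 formed a single cluster named mixed-phase. These counts therefore depend on the clustering and do not show that such cells were absent. Nfib was highest in neuron-like cells (1993 ± 351 CPM, SD, n = 3), then in cluster 6 (1354 ± 333). Mixed-phase (1068 ± 292), cycling-like (1061 ± 249), granule progenitor-like (1007 ± 303) and astrocyte-like cells (995 ± 51.9) lay within their spread of each other, and myeloid-like cells had 103 ± 38.1. Nfix was also highest in neuron-like cells (976 ± 326 CPM) and next in cluster 6 (692 ± 253), with 518 ± 45.3 in astrocyte-like, 465 ± 192 in granule progenitor-like, 459 ± 203 in mixed-phase and 453 ± 154 in cycling-like cells. For Nfia the neural classes lay closer together, from 970 ± 263 CPM in neuron-like and 863 ± 210 in granule progenitor-like cells to 714 ± 155 in cycling-like and 595 ± 185 in astrocyte-like cells, with 65.9 ± 31.04 in myeloid-like cells. Nfic ranged over these neural classes from 76.2 ± 6.08 CPM in neuron-like to 115 ± 34.4 in mixed-phase cells, and its 84.9 ± 24.8 in myeloid-like cells fell inside that range. Oligodendrocyte lineage-like cells, present in tumours 2 to 4, had 530 ± 217 CPM of Nfib, 376 ± 122 of Nfix, 660 ± 294 of Nfia and 64.8 ± 14.5 of Nfic. In dendritic-like cells of tumours 1, 2 and 4 the means were 64.5 CPM of Nfib, 55.4 of Nfix, 62.6 of Nfia and 30.5 of Nfic. These cells numbered 10, 13 and 207, and those of tumours 1 and 2 gave only 1 to 14 UMIs per gene. In tumour 4 alone the levels were 27.9, 27.1, 22.4 and 27.5 CPM, in the same order of genes. Cluster 8, another unnamed cluster, numbered 161, 75 and 58 cells in tumours 1 to 3. It had a mean of 1324 CPM of Nfib and 655 CPM of Nfix, close to cluster 6. The leading genes of cluster 10 include the granule protein genes Ngp, Camp and Ltf. In tumours 1, 2 and 4 it had 840, 826 and 279 CPM of Nfib and 322, 306 and 176 CPM of Nfix. The tumour 4 values rest on 10 cells. Cluster 15 (54 and 79 cells in tumours 2 and 3) had 348 and 528 CPM of Nfib. Its Nfix stood at 240 and 403 CPM and its Nfia at 339 and 663 CPM. All lay below the progenitor-like level of the same tumour. In the 53 muscle-like cells, found in tumour 1 alone, the levels were 288 CPM of Nfia, 364 of Nfib, 72.8 of Nfic and 214 of Nfix, beside summed levels of 428 CPM for the granule progenitor markers and 801 CPM for the neuron markers.

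**Figure D1:**
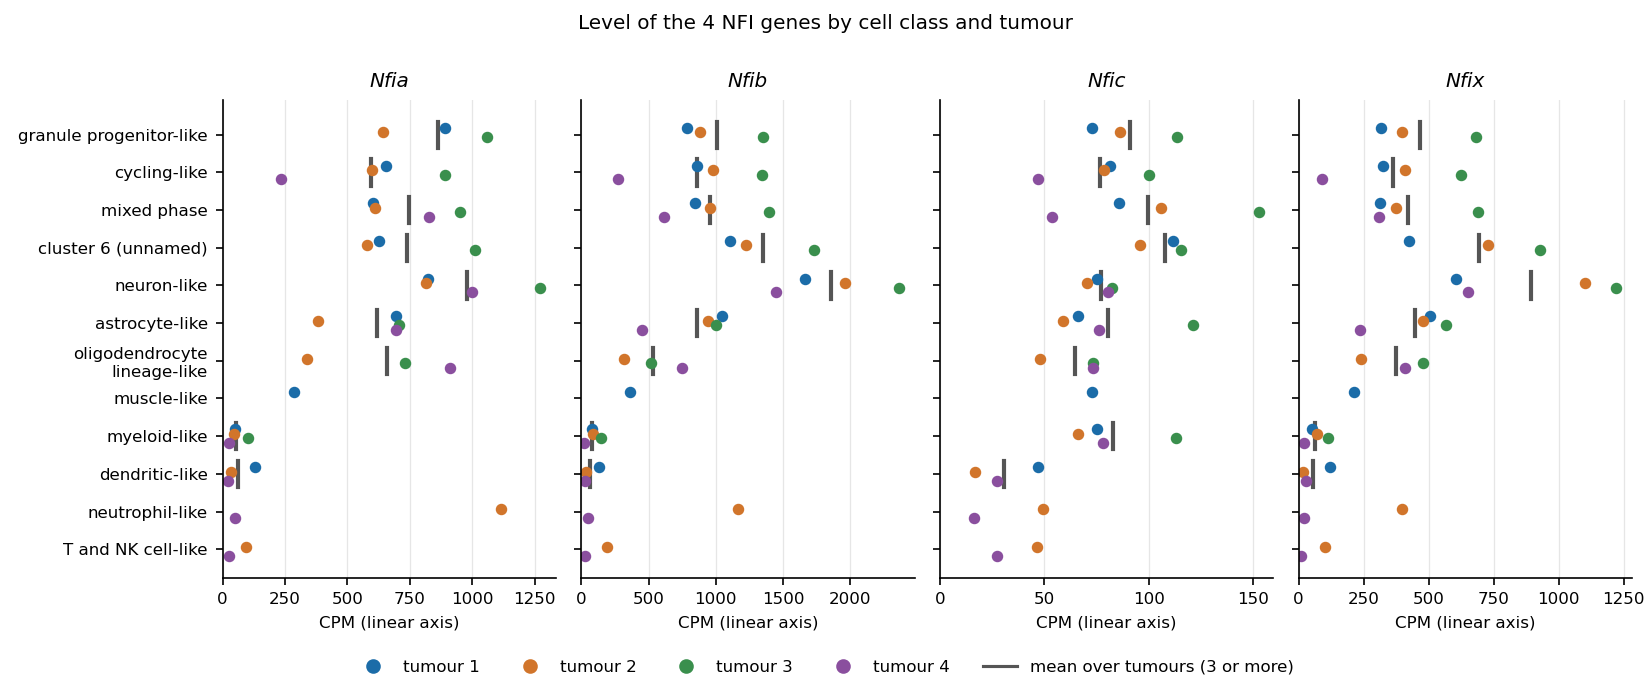
CPM of each gene (x axis, linear) in each cell class (y axis); 1 point is the cells of a class in 1 tumour (at least 10 cells) and the grey bar is the mean where 3 or more tumours have the class. Nfib and Nfix are highest in neuron-like cells, Nfia, Nfib and Nfix are low in myeloid-like cells, and Nfic is spread over one range in neural and myeloid-like cells. The single neutrophil-like point of tumour 2 at 1116 CPM of Nfia stands for 10 cells.

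The first comparison asked whether the family differs between neuron-like cells and the progenitor-like cells of the same tumour. In neuron-like cells of tumours 1 to 4, neuron markers summed to 5095, 11474, 7612 and 4677 CPM. The progenitor-like cells had 1025, 2150, 2246 and 1407 CPM of them. Granule progenitor markers remained in neuron-like cells, at 2029, 1403, 2253 and 1400 CPM, against 2136, 2973, 3927 and 1637 CPM in progenitor-like cells. The part of either in the NFI values was not tested. Nfib and Nfix were about 2-fold higher in neuron-like cells, Nfia was higher by a smaller step, and no difference was called for Nfic. Nfib stood at 1661, 1960, 2360 and 1444 CPM in the neuron-like cells of tumours 1 to 4, against 844, 935, 1362 and 606 CPM in their progenitor-like cells. Every tumour had more Nfib in its neuron-like cells, by 1.97, 2.10, 1.73 and 2.38 times, and the lowest neuron-like value lay above the highest progenitor-like value. The difference in mean log2 value was 1.01 (SE 0.09, n = 4 tumours, limma, adjusted p = 0.000689).

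Nfix stood at 606, 1102, 1221 and 650 CPM in neuron-like cells against 320, 396, 670 and 303 CPM in progenitor-like cells. It was higher in 4 of 4 tumours, by 1.89, 2.78, 1.82 and 2.15 times, although the groups overlap across tumours, with tumour 3 highest in both. The limma difference was 0.94 (SE 0.09, adjusted p = 0.000841). Nfia stood at 821, 815, 1273 and 1000 CPM against 684, 619, 986 and 807 CPM, or 1.20, 1.32, 1.29 and 1.24 times higher, with a limma difference of 0.28 (SE 0.06, adjusted p = 0.0159). Nfic, the member with no call, stood at 75.4, 70.5, 82.6 and 80.5 CPM against 80.9, 89.2, 121 and 53.5 CPM. It was lower in tumours 1 to 3 and higher in tumour 4, with a limma difference of -0.11 (SE 0.07, adjusted p = 0.285).

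So 3 of 4 members rose, in a comparison in which 29.7% of all 9436 tested genes were called, 12.3% as higher and 17.5% as lower. Of the called genes 41.2% were higher in neuron-like cells, and 56.3% were with log2 CPM of summed UMIs (pseudocount 10). The call for Nfia was lost without tumour 2 (adjusted p = 0.0714), without tumour 3 (adjusted p = 0.0853) and against granule progenitor-like cells alone (tumours 1 to 3, limma difference 0.20, adjusted p = 0.160), whereas Nfib and Nfix kept theirs in each of these. Neuron-like cells were shallower in tumours 2 and 3, with medians of 5535 and 4879 UMIs against 9052 and 7561 in progenitor-like cells. With cells thinned to 4900 UMIs, all 3 calls held. Cells below that depth were left out of this fit. The neuron-like cells thereby fell from 468 to 308 in tumour 2 and from 176 to 88 in tumour 3.

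**Figure D2:**
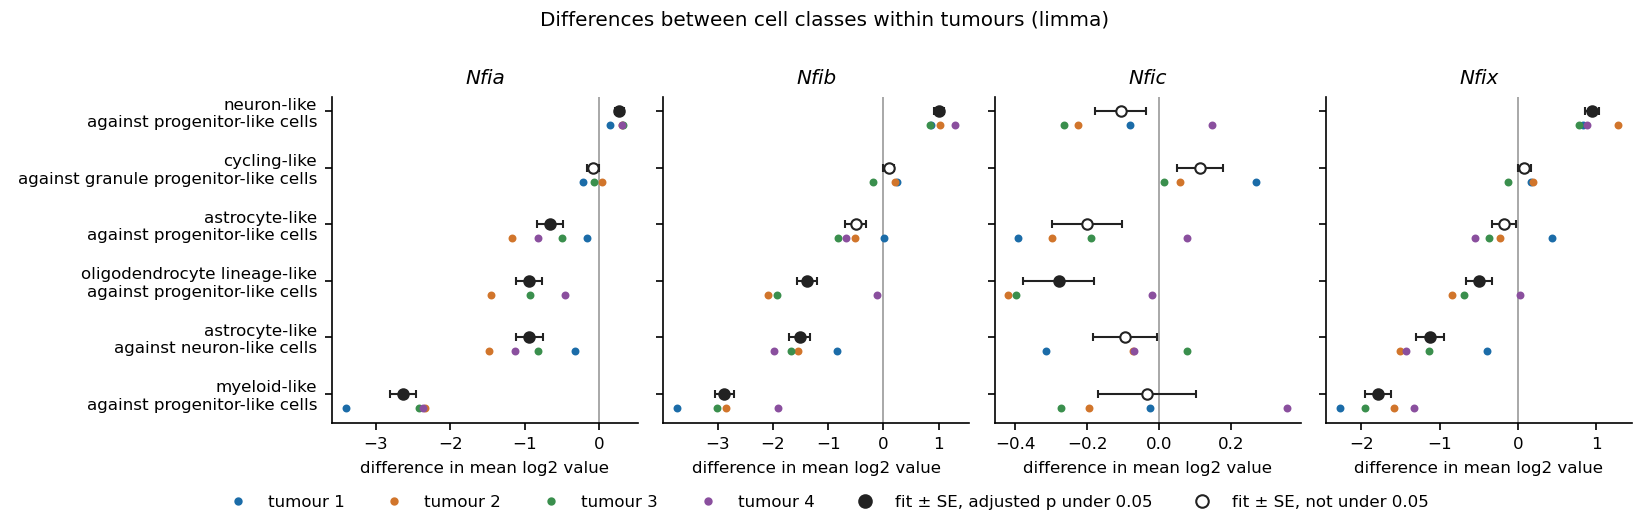
Difference in mean log2 value (x axis) for each comparison (y axis) and gene; the black point with bar is the limma estimate ± SE, filled where the adjusted p is under 0.05, and the small points are the single tumours. Nfib and Nfix lie near 1 in the comparison of neuron-like with progenitor-like cells and near -3 and -2 in that of myeloid-like cells, and Nfic lies near 0 in each of them.

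Cluster 6 held Nfib and Nfix at levels in between. There Nfib stood at 1107, 1222 and 1733 CPM in tumours 1 to 3, which was 1.31, 1.31 and 1.27 times the progenitor-like level, and the neuron-like level was a further 1.36 to 1.60 times higher. Nfix stood at 424, 726 and 926 CPM, or 1.32, 1.83 and 1.38 times the progenitor-like level. Both genes thus had an intermediate value in each of the 3 tumours. Nfia did not follow that order, with 625, 580 and 1010 CPM in cluster 6, below the progenitor-like level in tumours 1 and 2 and above it in tumour 3. Nfic was higher in cluster 6 (112, 95.6 and 116 CPM) than in the neuron-like cells of the same tumours. These values carry no test, since the cluster was singled out after it had been seen. An intermediate level was not particular to cluster 6. In tumours 1 to 3, cluster 8 had 1063, 1263 and 1647 CPM of Nfib and 424, 662 and 880 CPM of Nfix. Its median depth there was 46377, 8556 and 8737 UMIs, and the part of depth in these levels was not tested.

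**Figure D3:**
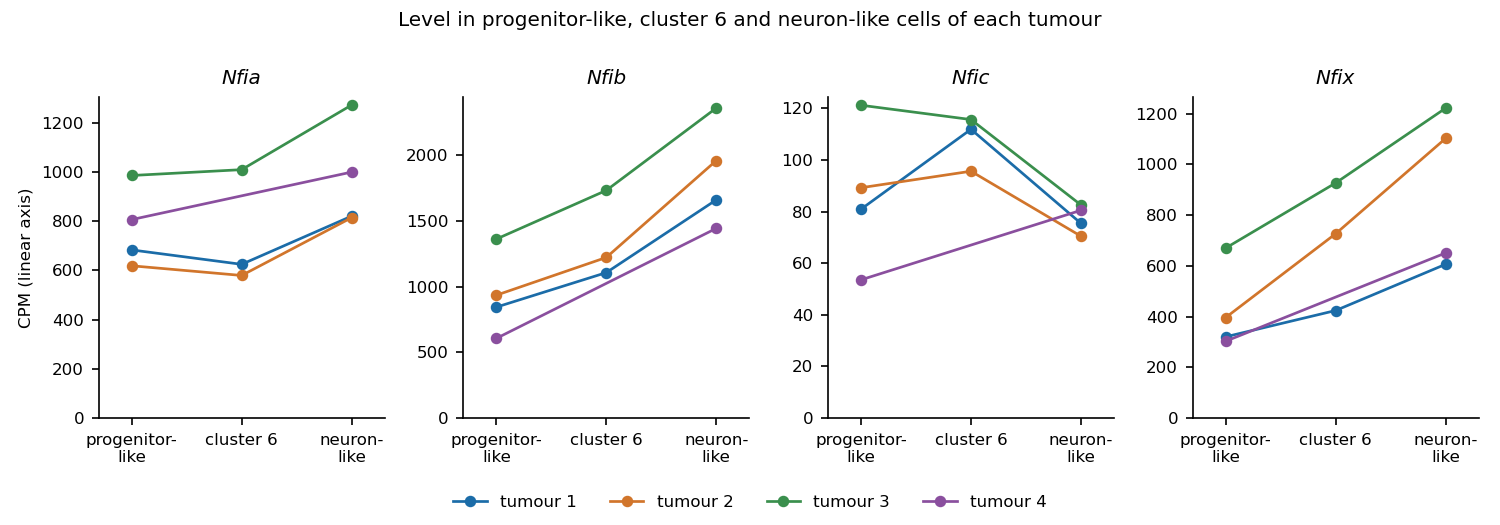
CPM (y axis, linear) in progenitor-like cells, cluster 6 and neuron-like cells, 1 line per tumour; tumour 4 has no point for cluster 6, where it had 1 cell. The lines of Nfib and Nfix climb at both steps, and those of Nfia climb mainly at the second.

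Progenitor-like and neuron-like cells of each tumour were also put into 5 equal bins by the share of UMIs in 10 neuron markers minus that in 9 granule progenitor markers, a range of a score and not a cell type. Nfib differed little over the first 3 bins of tumours 1 to 3, was lowest in the third bin of tumour 4 (519 CPM), and was highest in the top bin in every tumour. In tumour 2 it ran through 914, 848, 895, 1162 and 2055 CPM. From the bottom to the top bin it differed by 1.84, 2.25, 1.67 and 1.97 times in tumours 1 to 4, of which the last step alone gave 1.65, 1.77, 1.64 and 1.72 times. Nfix differed by 1.96, 3.73, 1.86 and 2.11 times, with the last step at 1.89, 2.09, 1.74 and 1.65 times.

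Nfia was highest in the top bin in all 4 tumours as well, but by 1.19, 1.29, 1.19 and 1.06 times over the bottom bin, and its lowest value lay in bin 2, 3 or 4. Nfic in the top bin was 0.745, 0.844 and 0.775 times the bottom bin in tumours 1 to 3 and 1.20 times in tumour 4. The top bin held 72.4%, 99.7%, 92.1% and 86.0% neuron-like cells, so that these values restate the class comparison at finer grain and are no second support for it.

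**Figure D4:**
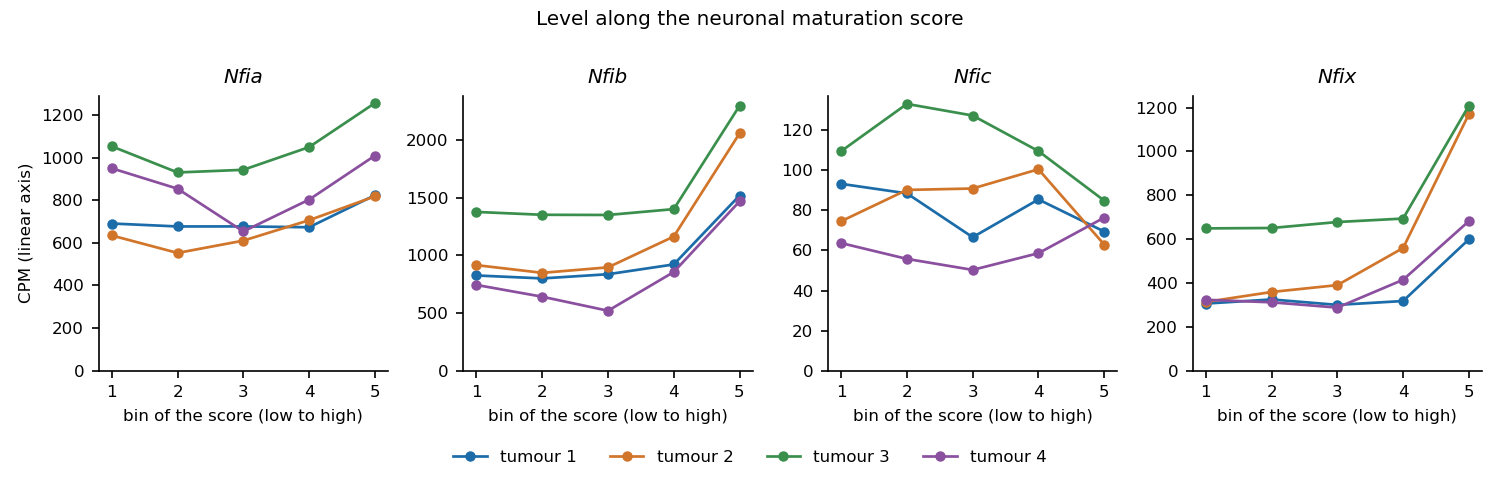
CPM (y axis, linear) in 5 equal bins of the score (x axis), 1 line per tumour. For Nfib and Nfix the lines stay low over bins 1 to 3 and climb to bin 5, which is 1.67 to 2.25 times bin 1 for Nfib.

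Among the other genes looked at beside the family, granule neuron maturation genes were split. Of 13 listed, 8 could be tested and 3 rose and 1 fell in neuron-like cells. Cntn2, an axonal adhesion molecule of young granule neurons, rose by 1.24 on the log2 scale (11.8 to 190 CPM), Neurod2 by 0.33 and the cadherin gene Cdh2 by 0.25, and Etv1 fell by 0.14. The median over the 8 was 0.01, against -0.01 over all tested genes. All 5 progenitor genes that NFI factors are reported to repress in the forebrain were tested, and 3 fell, with a median of -0.16. The polycomb methyltransferase gene Ezh2 fell by 0.50 (217 to 134 CPM), Sox9 by 0.46 (122 to 57.8 CPM) and the Notch target Hes1 by 0.16. The call for Sox9 was lost with CPM sums (limma adjusted p = 0.0747). Bbx (0.05) and Insc (0.09) differed in the other direction without a call. With CPM sums Insc was called as higher (0.382 to 8.23 CPM, limma adjusted p = 0.00526).

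Of 9 transcription factors of these lineages, 4 rose and 1 fell, with a median of 0.07. Zic1 rose by 1.10 (356 to 828 CPM), Pax6 by 0.83 (212 to 444 CPM), Meis1 by 0.44 and Zic2 by 0.33. These are transcription factors that granule cells carry through their development. Nfatc3, a factor activated by calcium signals, fell by 0.08. None of the 7 tested astroglial genes was called. With CPM sums Mmd2 was called as higher and Gfap as lower (limma adjusted p = 0.00221 and 0.0295).

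Within the progenitor-like cells, a further comparison set cycling-like against granule progenitor-like cells in tumours 1 to 3, and none of the 4 members was called. Here 7.00% of 9572 genes were called, 6.26% as higher and 0.742% as lower. Nfia stood at 653, 598 and 890 CPM in cycling-like cells against 890, 641 and 1059 CPM, lower in each tumour, while its difference in mean log2 value was -0.08 (SE 0.08, adjusted p = 0.549). With log2 CPM of summed UMIs the difference was -0.26 and was called (limma, adjusted p = 0.000856), so the outcome for Nfia turns on the scale. Nfib stood at 862, 981 and 1340 CPM against 786, 884 and 1353 CPM, with a difference of 0.10 (SE 0.10, adjusted p = 0.566).

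Nfix stood at 324, 411 and 624 CPM against 316, 399 and 682 CPM, and Nfic at 81.3, 78.8 and 100.2 CPM against 72.7, 86.4 and 114 CPM. Their differences were 0.08 (SE 0.08, adjusted p = 0.581) and 0.11 (SE 0.06, adjusted p = 0.294). Nfic passed the threshold when called doublets were kept (0.23, limma adjusted p = 0.0410). Of the called genes 89.4% were higher in cycling-like cells, against 46.2% with CPM sums. Ezh2 (0.69, limma adjusted p = 0.000533) and Pax6 (0.49, adjusted p = 0.0139) rose here, and no gene of the maturation and astroglial lists was called. With CPM sums Gfap and Slc1a2 of these lists were called as lower and Calb2 as higher (limma adjusted p = 0.000183, 0.00012 and 0.0176). Of the transcription factors, Zeb1, Meis1 and Nfatc4 were then called as lower (limma adjusted p = 7.27e-05, 0.000479 and 0.000645). Zic1 was called as higher (limma adjusted p = 0.0351).

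The astrocyte-like cells were few, 16, 11, 20 and 27 in tumours 1 to 4. All 8 astrocyte markers had UMIs in every tumour, with a summed level of 1098 to 3548 CPM against 97.0 to 145 CPM in progenitor-like cells. Their cluster was led by Ttr, Mgp, Lcn2 and Igfbp7, and Ttr, a choroid plexus gene, was at 0 or not listed in this class of tumours 1 to 3, whereas the choroid plexus and ependymal markers summed to 17396 CPM in tumour 4. Granule progenitor markers summed to 759 to 2438 CPM in these cells. Neuron markers summed to 1737, 3174, 2323 and 1103 CPM, against 1025, 2150, 2246 and 1407 CPM in progenitor-like cells. The part of either in the NFI values was not tested.

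No member was higher in astrocyte-like than in progenitor-like cells by the test, and 1 of 4, Nfia, was lower. Nfia stood at 695, 382, 708 and 696 CPM in astrocyte-like cells, against the progenitor-like values given above. It was about equal in tumour 1 and lower in the others, and limma gave a difference of -0.66 (SE 0.18, adjusted p = 0.00901). In this comparison 10.4% of 10514 genes were called, 3.55% as higher and 6.86% as lower. The call was lost with CPM sums (-0.34, limma adjusted p = 0.109), in thinned cells (-0.28, adjusted p = 0.371, tumours 1, 3 and 4), without tumour 2 (-0.49, adjusted p = 0.172), without tumour 4 (-0.61, adjusted p = 0.0995) and under 4 other settings. Median depth in these cells was 25895, 5149, 5066 and 12963 UMIs, and its part in the difference between scales was not tested. Of the called genes 34.1% were higher, against 57.9% with CPM sums.

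Nfib stood at 1044, 940, 1002 and 449 CPM (difference -0.50, SE 0.19, limma adjusted p = 0.0773), above the progenitor-like level in tumour 1, about equal to it in tumour 2 and below it in tumours 3 and 4. Nfix stood at 505, 480, 568 and 234 CPM (-0.18, SE 0.16, adjusted p = 0.522) and Nfic at 66.2, 58.8, 121 and 76.5 CPM (-0.20, SE 0.10, adjusted p = 0.194). For both, the tumours went in either direction. Of 9 astroglial genes, 8 were tested and all 8 rose, with a median of 0.98 against -0.02 over all genes. Fabp7, a fatty acid binding protein of radial glia, rose by 2.86 (112 to 1832 CPM), Sparcl1 by 1.94, Gfap, the astrocyte intermediate filament gene, by 1.26, S100b by 1.07 and Hopx by 0.88. The calls of Gfap and Zcchc24 were lost with CPM sums (limma adjusted p = 0.130 and 0.0873). The class was named from other astrocyte genes, so this direction is no independent finding. Hes1 rose by 0.32 and Ezh2 fell by 0.60, and none of the 9 transcription factors was called.

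Against neuron-like cells, the astrocyte-like cells had less of 3 members. The differences were -1.51 for Nfib (SE 0.19, limma adjusted p = 2.91e-05), -1.12 for Nfix (SE 0.18, adjusted p = 0.000279) and -0.93 for Nfia (SE 0.18, adjusted p = 0.00164). Each was lower in 4 of 4 tumours, by ratios of 0.311 to 0.628 for Nfib, 0.360 to 0.834 for Nfix and 0.469 to 0.847 for Nfia. Nfic differed by -0.09 (SE 0.09, adjusted p = 0.567). Of 10524 genes, 9.52% were called, 3.53% as higher and 5.99% as lower. In the lists, 8 of 8 tested astroglial genes, 2 of 5 forebrain progenitor genes (Hes1 and Sox9) and Etv1 were higher, while Zic1, Pax6, Meis1, Zic2, Cntn2 and Neurod2 were lower. The calls of Cntn2 and Sparcl1 were lost with CPM sums (limma adjusted p = 0.0732 and 0.0611). This comparison and those with progenitor-like cells share their cells and are not independent of each other.

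Oligodendrocyte lineage-like cells numbered 16, 30 and 46 in tumours 2 to 4. The cells of tumour 2 carried mainly markers of mature oligodendrocytes, with a summed level of 17111 CPM against 3634 CPM for precursor markers. In tumour 4 the order was the reverse, 782 against 1587 CPM, and in tumour 3 the sums were 2655 and 2883 CPM. All 4 members were called as lower than in progenitor-like cells on the scale of mean log2 values, where 24.2% of 10429 genes were called, 8.05% as higher and 16.2% as lower. The cells of tumour 4 formed cluster 18 and those of tumours 2 and 3 cluster 19.

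Nfib stood at 317, 521 and 751 CPM in tumours 2 to 4, against 935, 1362 and 606 CPM in progenitor-like cells, so tumours 2 and 3 were lower and tumour 4 was higher in CPM. Nfia stood at 336, 733 and 912 CPM, Nfix at 240, 476 and 411 CPM and Nfic at 48.1, 73.3 and 73.2 CPM, with the same split between tumours 2 and 3 and tumour 4. The limma differences were -1.38 for Nfib (SE 0.18, adjusted p = 5.07e-12), -0.94 for Nfia (SE 0.18, adjusted p = 2.77e-06), -0.50 for Nfix (SE 0.16, adjusted p = 0.0147) and -0.28 for Nfic (SE 0.10, adjusted p = 0.0240). These SEs and p-values rest largely on variance shared across genes. For Nfib the single tumours differed by -2.09, -1.93 and -0.11, a wider spread than the SE conveys. None of the 4 calls held with CPM sums, where limma adjusted p-values ran from 0.137 for Nfib to 0.461 for Nfix. Without tumour 2 the calls of Nfib, Nfic and Nfix were lost (limma adjusted p = 0.581, 0.186 and 0.161), and without tumour 3 those of Nfic and Nfix (adjusted p = 0.425 and 0.409). The cells of tumours 2 to 4 had medians of 5523, 6622 and 16969 UMIs, and their granule progenitor markers summed to 1009, 1620 and 1417 CPM, against 2973, 3927 and 1637 CPM in progenitor-like cells. Neuron markers summed to 2067, 2113 and 2286 CPM, against 2150, 2246 and 1407 CPM. The part of depth and of these markers in the split between tumours was not tested. Of the called genes 33.3% were higher, against 69.1% with CPM sums.

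In the lists, 6 of 8 tested astroglial genes rose in oligodendrocyte lineage-like cells, led by Fabp7 (2.17), Sparcl1 (1.68) and S100b (1.39), and Gfap fell by 0.17. Zic1, Pax6, Meis1 and Zic2, 4 of 8 tested transcription factors, fell, by 0.15 to 1.13. Ezh2 and Sox9 fell by 0.76 and 0.56, and of the 8 tested maturation genes Etv1 and Astn1 rose and Cbln1 fell. The calls for Zic1, Pax6, Meis1, Zic2 and Gfap were lost with CPM sums.

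Myeloid-like cells gave the level outside the neural lineages. They numbered 84, 124, 12 and 458, and all 10 myeloid markers had UMIs in every tumour, while cluster 5 held most of those in tumour 4 and cluster 9 most of those in tumours 1 and 2. Nfia stood between 25.1 CPM in tumour 4 and 102 CPM in tumour 3, Nfib at 76.5, 86.2, 147 and 20.6 CPM and Nfix at 52.0, 72.0, 113 and 19.4 CPM. All 3 lay below every neural class in every tumour, at 3.11% to 10.3% of the progenitor-like level for Nfia, 3.40% to 10.8% for Nfib and 6.40% to 18.2% for Nfix. Limma gave differences of -2.64 (SE 0.18), -2.87 (SE 0.18) and -1.78 (SE 0.17), with adjusted p = 9.25e-47, 3.42e-53 and 3.43e-24, values that rest largely on variance shared across genes. Here 52.5% of 9576 genes were called, 9.30% as higher and 43.2% as lower, which is the background for the 3 of 4 members that fell. Of the other lists, 7 of 7 tested maturation genes, 6 of 7 astroglial genes, 3 of 4 forebrain progenitor genes and 6 of 9 transcription factors fell as well, among them Zic1 (-1.77), Pax6 (-1.38) and Ezh2 (-1.26). Zeb2 (0.69), Ski (0.23) and Hopx (0.11) rose, and the call of Hopx was lost with CPM sums (limma adjusted p = 0.117).

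Nfic stood at 75.5, 66.1, 113 and 78.0 CPM in myeloid-like cells, a ratio to progenitor-like cells of 0.933, 0.741, 0.932 and 1.46. The limma difference was -0.03 (SE 0.14, adjusted p = 0.846), which with this SE does not show that the levels are equal. In cells thinned to 4900 UMIs, Nfic was seen in 30.95%, 23.0% and 33.5% of myeloid-like cells of tumours 1, 2 and 4 and in 35.6%, 33.0% and 22.8% of progenitor-like cells. Without thinning the shares were 51.2%, 34.7% and 49.3% against 68.8%, 52.5% and 36.4%, at medians of 10897, 6021 and 10374 UMIs against 15295, 9052 and 8678. For Nfia the thinned shares were 11.9%, 16.1% and 9.36% against 93.5%, 91.8% and 92.2%.

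Immune cells should lack neural transcripts, so 8 neural genes (Atoh1, Neurod1, Tubb3, Dcx, Zic1, Pax6, Barhl1 and Stmn2) were set beside the family to gauge free RNA. In the 369 neutrophil-like cells of tumour 4 these genes had between 4.72% and 20.1% of their progenitor-like level, and Nfia, Nfib and Nfix had 6.03%, 8.24% and 7.10%. In the 159 T and NK cell-like cells of that tumour the neural genes had 1.02% to 10.1% and the 3 members 3.22%, 4.48% and 3.52%. These values lie inside the range of the neural genes, and the part of free RNA in them was not tested. In myeloid-like cells of tumours 1, 2 and 4 Nfia and Nfib also lay at or below the median of the 8 genes. Nfix in tumour 2, at 18.2%, lay above their maximum of 14.2%, but in tumours 1 and 4 it lay inside their range.

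Nfic lay above all 8 neural genes in each of the 6 immune groups examined. It had 30.7% of its progenitor-like level in neutrophil-like cells, 50.8% in T and NK cell-like cells and 51.4% in dendritic-like cells of tumour 4, and 93.3%, 74.1% and 146% in myeloid-like cells of tumours 1, 2 and 4. The 10 neutrophil-like cells of tumour 2 went the other way. They had 1116 CPM of Nfia and 1166 CPM of Nfib, beside 1823 CPM of granule progenitor markers and 2865 CPM of neuron markers. In neutrophil-like cells of tumour 4 these markers summed to 101 and 185 CPM. The doublet calls, which may have missed most doublets, did not include the 10 cells of tumour 2. Whether those cells are doublets was not tested further.

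**Figure D5:**
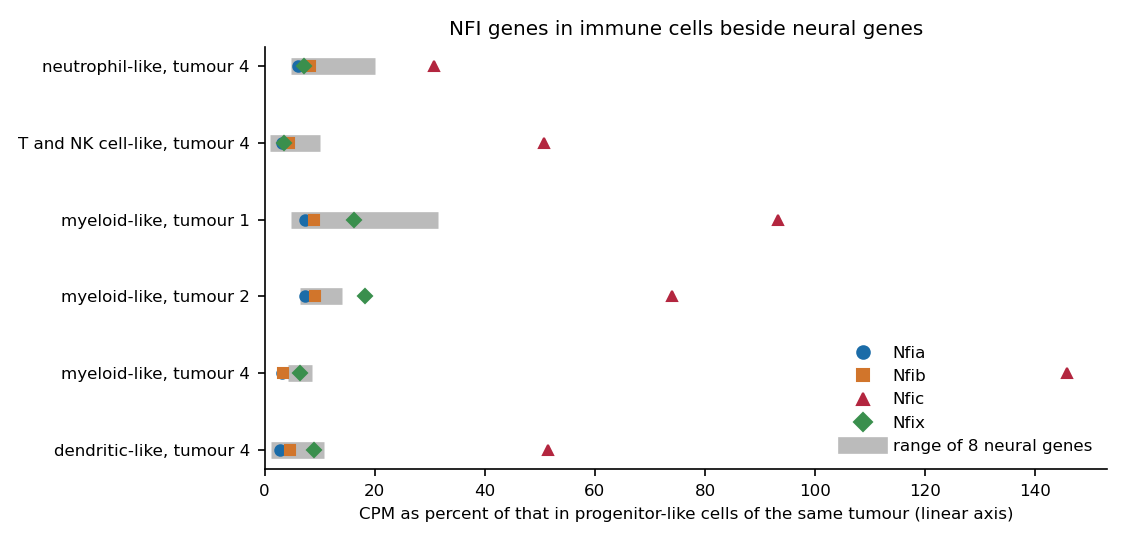
Level in immune cells as a percent of that in progenitor-like cells of the same tumour (x axis, linear), by class and tumour (y axis); the grey bar spans 8 neural genes and the symbols are the 4 NFI genes. Nfic lies beyond the bar in all 6 rows, Nfix in 1, and Nfia and Nfib in none on the high side.

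Most neuron-like and progenitor-like cells held transcripts of several members at once. With cells thinned to 4900 UMIs, 95.7%, 94.8%, 97.7% and 96.2% of neuron-like cells had UMIs of at least 3 of the 4 genes, against 77.7%, 80.3%, 94.5% and 68.3% of progenitor-like cells. The neuron-like share was higher in every tumour, by the least in tumour 3. Without thinning the shares were 100%, 96.6%, 98.3% and 95.8% against 97.2%, 93.9%, 96.2% and 76.3%. In myeloid-like cells of tumours 1, 2 and 4 the thinned share was 4.76%, 6.90% and 1.48%. Among astrocyte-like cells of tumours 1, 3 and 4 it was 81.25%, 83.3% and 56.0%, on 16, 12 and 25 cells. Among oligodendrocyte lineage-like cells of tumours 2 to 4 it was 41.7%, 90.9% and 70.7%, on 12, 22 and 41 cells. The share with all 4 was limited by Nfic and did not separate the classes alike in all tumours, with 23.4%, 25.6%, 31.8% and 28.0% of thinned neuron-like cells and 26.7%, 25.1%, 34.8% and 15.6% of thinned progenitor-like cells. Unthinned these were 68.1%, 28.0%, 33.5% and 54.2% against 66.4%, 48.9%, 55.1% and 31.9%.

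Over the 34 sums of a tumour and a named class, centred within tumour, Nfib and Nfix had a Pearson r of 0.98 on log2(CPM + 10), Nfia and Nfib 0.97 and Nfia and Nfix 0.95. The points share libraries and are split between neural and immune classes. Over the 22 points of neural classes alone the values were 0.91, 0.77 and 0.83, and those of Nfic with the other members ran from 0.25 to 0.46. Of 10059 genes ranked over the 34 points, Pax6 (0.98), Nfix, Ppp2r2c, Ddah2 and Gpr85 were most like Nfib. Nfib, Ddah2, Ank3, Uchl1 and Lhx1 (0.98 to 0.97) were most like Nfix, and Nfib, Tshz2, E130114P18Rik, Gpr85 and Cald1 (0.97 to 0.96) most like Nfia. The genes nearest to Nfic (Magohb, Eif4a1, Frmd4b, Pdgfa and Naa20) reached only 0.81 to 0.77.

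Of these, E130114P18Rik overlaps the 5′ end of Nfia on the opposite strand (chromosome 4, 97568133 to 97778078), with 313, 276, 279 and 109 CPM over the cells of tumours 1 to 4. Whether counting used strand is not stated in the labels, and UMIs from the overlap of these genes are uncertain in their gene. Antisense or intronic genes also lie within Nfib (Gm11266, 7.95 to 41.3 CPM, and Gm11267, 1.59 to 8.32 CPM) and Nfic (Gm16104, 5.15 to 9.75 CPM). Lyl1, on the strand opposite to Nfix, had 0.956 to 5.09 CPM in tumours 1 to 3 and 48.4 CPM in tumour 4.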

How the data were processed

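The 4 files hold log2 values per gene and cell that the authors deposited, of the form log2(UMI count / size factor + 1), read from the values themselves. All values gave whole UMI counts, so CPM and class sums were computed from those counts. Per the submitters' processing notes, Cell Ranger and Seurat were used with mm10 (versions not given in the sources used here). Both the members and the gene lists were chosen with earlier results of these data known.

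A filter (at least 500 genes and at most 10% mitochondrial UMIs) removed 0 of 6509 cells, and Scrublet called 25 doublets (0.384%), which may have missed most, leaving 6484 cells. Cells were clustered with scanpy 1.11.5 and leidenalg 0.10.2 (1000 variable genes without the members and lists, 30 components, 15 neighbours, resolution 1), and the 23 clusters were named from marker lists by thresholds set after the clusters were seen. Unnamed clusters met no threshold or were led by genes of another class.

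Tests used limma 3.58.1 in R 4.3.3 (variance trend, robust moderation) on the mean deposited log2 value per tumour and class. Tumour was the block, because both classes come from the same tumour, so the pairing comes from the design. A tumour needed 10 cells in each class. Genes in all 4 files, with UMIs in 5% or more of the cells of 1 of the compared classes and not among 1030 clustering and marker genes, were tested, with Benjamini-Hochberg adjustment and a threshold of 0.05. All adjusted p-values come from limma. The named genes were the members, and in each comparison the called genes of 4 lists, at most 5 per list and direction, and the 5 genes of most similar pattern. Some list genes without a call, or with a call on CPM sums alone, were named as well. The fits were also run on data simulated from the fitted model itself. That checks the calculation, and cannot show whether the model suits the small classes or the spread between tumours. Alternatives were CPM sums (pseudocounts 10 and 1), cells thinned to 4900 UMIs (1259 were too shallow), no detection filter, no block, each tumour left out, resolutions 0.5 and 2, and doublets kept. A progenitor reference with the unnamed neural clusters, or of granule progenitor-like cells alone, was added after seeing the data.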

Additional observations from a re-analysis of the deposited data

Results flagged for a closer look

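Of 28 sets of 4 tumour values examined (a gene in a class), 2 held a tumour far from the other 3 by Dixon's criterion for the gap over the range, and chance flags about 1 in 20 such sets. Nfia in astrocyte-like cells was 382 CPM in tumour 2, a class of 11 cells there, against 695 to 708 CPM in the others (gap over range 0.959). Nfix in mixed-phase cells was 691 CPM in tumour 3, against 310 to 374 CPM in the others (gap over range 0.833).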

How the results depend on the processing

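The differences of Nfib (0.91 to 1.07) and Nfix (0.82 to 1.09) between neuron-like and progenitor-like cells, and of Nfia, Nfib and Nfix between myeloid-like and progenitor-like cells, kept direction and call under every alternative run, except the fits of the neurons without the block.

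Without the replicate block, which ignores that both classes come from 1 tumour, the differences stayed the same but the calls were lost in the neuron-like comparison for Nfia (0.28), Nfib (1.01) and Nfix (0.94), in astrocyte-like against neuron-like cells for Nfia (-0.93), Nfib (-1.51) and Nfix (-1.12), in astrocyte-like against progenitor-like cells for Nfia (-0.66), and in oligodendrocyte lineage-like cells for Nfic (-0.28) and Nfix (-0.50). The counts of called genes without the block were 1 (of 2805 with it), 36 (of 670), 2 (of 1094), 3 (of 1002) and 2082 (of 5032) for the neuron-like, cycling-like, astrocyte-like against progenitor-like, astrocyte-like against neuron-like and myeloid-like comparisons. At an unadjusted p under 0.05 the neuron-like fit had 710 without the block.

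For Nfia, the neuron-like call was lost against granule progenitor-like cells (0.20). The astrocyte-like call of Nfia was lost with CPM sums (-0.34 with either pseudocount), against granule progenitor-like cells (-0.67), without the detection filter (-0.66), at resolution 2 (-0.41) and in thinned cells (-0.28), and Nfib gained a call when unnamed neural clusters joined the reference (-0.53). In oligodendrocyte lineage-like cells calls were lost with CPM sums at pseudocounts 10 and 1 for Nfia (-0.37 and -0.38), Nfib (-0.86 and -0.88), Nfic (-0.35 and -0.38) and Nfix (-0.25 and -0.26), in thinned cells for Nfib (-0.80), Nfic (-0.06) and Nfix (-0.06), without the detection filter for Nfic (-0.28) and Nfix (-0.50), and at resolution 2 for Nfic (-0.22) and Nfix (-0.42). In cycling-like cells Nfia gained a call with CPM sums (-0.26 and -0.27) and Nfic with doublets kept (0.23). The cause was not tested.

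Signs turned only among uncalled values. With CPM sums these were Nfic in astrocyte-like against neuron-like cells (0.01), Nfix in astrocyte-like against progenitor-like cells (0.08), and Nfic (-0.05) and Nfix (-0.02) in cycling-like cells. At resolution 0.5 they were Nfib (-0.09) and Nfix (-0.09) in cycling-like cells. In myeloid-like cells Nfic turned with doublets kept and at resolution 2 (0.01 each), without tumour 2 (0.02) and without tumour 3 (0.05).

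Counts of called genes moved by over 1.5 times as follows. In neuron-like cells (2805) there were 1677 against granule progenitor-like cells, and 1163 to 3245 with a tumour left out, the lowest without tumour 2 and 1497 without tumour 3. In cycling-like cells (670) there were 2025 and 1949 with CPM sums, 1341 with doublets kept, 383 without the filter, 1177 at resolution 0.5, 263 at resolution 2, and 623 to 2273 with a tumour left out, the highest without tumour 1. In astrocyte-like against progenitor-like cells (1094) there were 681 and 331 with CPM sums, 203 against granule progenitor-like cells, 288 without the filter, 634 at resolution 2, 163 in thinned cells, and 335 to 1017 with a tumour left out, the lowest without tumour 2. In astrocyte-like against neuron-like cells (1002) there were 563 without the filter, 356 in thinned cells, and 465 to 1285 with a tumour left out, the lowest without tumour 2. In oligodendrocyte lineage-like cells (2526) there were 1443 and 811 with CPM sums, 1098 in thinned cells, and 661 to 2983 with a tumour left out, the lowest without tumour 3. In myeloid-like cells (5032) there were 3278 to 4742 with a tumour left out, the lowest without tumour 2.

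Leaving out a tumour in turn gave a range of 0.26 to 0.32 for Nfia in neuron-like cells and of -0.82 to -0.49 in astrocyte-like against progenitor-like cells. In oligodendrocyte lineage-like cells it gave -2.01 to -1.02 for Nfib, -0.41 to -0.21 for Nfic and -0.76 to -0.33 for Nfix, and in myeloid-like cells -0.16 to 0.05 for Nfic. With 2 tumours left in a fit the spread rests largely on variance shared across genes.

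With CPM sums the median difference of all tested genes was -0.53 (pseudocount 10) and -0.90 (pseudocount 1) in myeloid-like cells, against -0.09 on the deposited scale, and -0.14 in both astrocyte-like comparisons at pseudocount 1. Astrocyte-like comparisons could not be fitted at resolution 0.5 or with doublets kept, where no cluster took that name. The oligodendrocyte lineage-like comparison was not run at resolution 0.5 or against granule progenitor-like cells, where 2 tumours had both classes and 3 were asked for outside the fits with a tumour left out. Nfic, at 53.5 to 121 CPM in progenitor-like cells, had a UMI in 36.4% to 68.8% of these cells, and the number of cells limits the precision of the smaller classes.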
